A study of Mus musculus with 25 samples.

Results

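The genes of autophagy were examined in HSLAM cells of *Znf143 f/f* and *Znf143 -/-* mice. They were taken from the gene table by symbol, as *Atg* followed by a digit (without *Atg9b*) together with *Map1lc3a*, *Map1lc3b*, *Gabarap*, *Gabarapl1*, *Gabarapl2*, *Sqstm1*, *Becn1*, *Ulk1*, *Ulk2*, *Wipi1*, *Wipi2*, *Pik3c3*, *Optn*, *Nbr1*, *Tax1bp1* and *Rb1cc1*. Of 23116 genes in the table, 34 met this rule, which uses no expression value. They comprise 5 genes of the initiating kinase complex, 3 of the class III phosphatidylinositol 3-kinase complex, 5 of membrane supply and lipid binding, 6 of the ATG12 conjugation system, 10 ATG8 proteins and enzymes that process them, 4 cargo receptors, and *Atg4a-ps*. The symbol of *Atg4a-ps* marks a pseudogene, whereas the gene annotation types it as protein coding.

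RNA was sequenced from HSLAM cells (LSK+ CD150+ CD48-), the bone marrow fraction enriched for hematopoietic stem cells, with 3 libraries per genotype and 6 in all. Control mice were *Rosa26ERT2-Cre-* and are called *Znf143 f/f*, and deleted mice were *Rosa26ERT2-Cre+* and are called *Znf143 -/-*. All were adult C57BL/6 males with loxP sites around exon 1 of both *Znf143* alleles, and both genotypes were injected with tamoxifen at the middle of the doses the study tested. Only the *Znf143 -/-* mice carry the tamoxifen-inducible Cre, and it is driven from the *Rosa26* locus, so that deletion is not limited to blood cells. The methods describe the mice as 3 pairs of littermates, but neither they nor the labels say which libraries form a pair, so that the fit holds no term for litter. The sample labels name the deleted genotype a CTCF knockout, whereas the methods of the study describe it as *Znf143 -/-*. The comparison asks how the expression of these genes differs after loss of ZNF143, a zinc finger factor that binds promoters.

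Autophagy encloses cytoplasm in a double membrane and delivers it to the lysosome. A kinase complex around ULK1 starts the process, the class III kinase VPS34 (encoded by *Pik3c3*) marks the growing membrane with a phospholipid, and 2 conjugation systems attach proteins of the ATG8 family to it. Cargo receptors such as p62 (encoded by *Sqstm1*) link ubiquitinated cargo to the ATG8 proteins. In hematopoietic stem cells, autophagy is known for removing active mitochondria and for keeping the cells quiescent. Much of its control lies in protein modification, which RNA levels do not show.

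Levels are given as FPKM, fragments per kilobase of gene length, scaled to library depth. The length counts all exon bases of a gene, which can exceed those of a transcript (*Rb1cc1* 14690 bases against 7607 in its longest). Levels of different genes therefore compare only roughly, while those of the same gene compare between libraries. The libraries held 38643255 to 57895793 fragments on genes, and 3 fragments on a gene of 1 kb correspond to 0.0518 to 0.0776 FPKM. The third *Znf143 -/-* library was deposited with the divisor of the second (48378188) although 57895793 fragments lay on its genes, and its FPKM were divided here by the ratio of these, 1.20. *Zfp143*, the mouse gene for ZNF143 (ENSMUSG00000061079, chromosome 7, 110061217 to 110095394, GRCm38), had 3.06, 4.03 and 3.63 FPKM in the *Znf143 f/f* and 0.145, 0.303 and 0.273 FPKM in the *Znf143 -/-* libraries (log2 fold change -3.46 ± 0.24 SE, limma adjusted p = 0.00119), so that each library matched its genotype by the methods. Markers of stem cells summed to 429 to 523 FPKM in the *Znf143 f/f* and 710 to 809 FPKM in the *Znf143 -/-* libraries, with *Ly6a* higher and *Mecom* lower among 7 genes. The rise of this sum lies in *Ly6a*, since the other 6 genes summed to 211 to 236 against 148 to 213 FPKM, and 3 of them (*Mecom*, *Hlf* and *Kit*) had all *Znf143 -/-* libraries below all controls. Of 7 neutrophil and monocyte markers, 4 were higher in *Znf143 -/-* cells (sum 115 to 131 against 38.8 to 69.9 FPKM), as were 2 of 7 lymphoid markers, *Dntt* and *Nkg7* (sum 215 to 250 against 111 to 130 FPKM), while *Cd79a*, *Cd3e* and *Il7r* lay at or near 0. None of 4 megakaryocyte markers passed the test, although each had all *Znf143 -/-* libraries above all controls (sum 559 to 820 against 381 to 512 FPKM). Of 6 erythroid markers, 1 was lower (sum 42.0 to 45.3 against 42.6 to 83.1 FPKM). Among the erythroid markers that did not pass, *Hba-a1* had all *Znf143 -/-* libraries below all controls and *Klf1* all above. The part of these differences in the results that follow was not tested. In bulk samples, fewer cells of a type and less RNA per cell cannot be told apart.

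No autophagy gene was called in either direction. The 34 genes were all expressed above the filter of a mean of 0.1 FPKM and were tested with limma among 19212 genes, and at an adjusted p under 0.05 0 were higher and 0 were lower in *Znf143 -/-* cells, where 5.22% of all tested genes were called, 2.83% higher and 2.39% lower. At an unadjusted p under 0.05, 2 genes were higher (*Nbr1* and *Atg16l2*) and 0 lower, beside 12.6% and 9.94% of all genes (22.6% in either direction). The same pair was the only one whose libraries did not overlap between genotypes, beside 16.0% of all genes with all *Znf143 -/-* libraries above and 13.5% with all below (29.4% in either direction). limma's voom on recovered fragments also called 0 of them.

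The differences were small and balanced in sign. Of the log2 fold changes (*Znf143 -/-* minus *Znf143 f/f*, on log2(FPKM + 0.1)), 17 were above and 17 below 0. Their median was 0.0014, with quartiles of -0.073 and 0.18, beside a median of 0.034 and quartiles of -0.23 and 0.29 for all tested genes. In 28 of the 34 genes (82.4%) the size of the change was under 0.25, against 48.7% of all tested genes. A high share was not particular to them, since it was 78.6% in the 56 genes around the pathway that are described below. The autophagy genes were also measured more precisely, with a median SE of 0.149 against 0.213 for all tested genes. The part of precision in these shares was not tested. The range ran from -0.39 for *Atg4c* to 0.46 for *Nbr1*. The median half-width of the 95% confidence interval was 0.35 before any adjustment for the number of genes. *Atg16l2* had a change of about that size, *Atg4c* and *Nbr1* had larger ones, and none of these was called. With 3 libraries per genotype, a change of that size was thus not enough to pass the adjusted test in these genes.

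**Figure D1:**
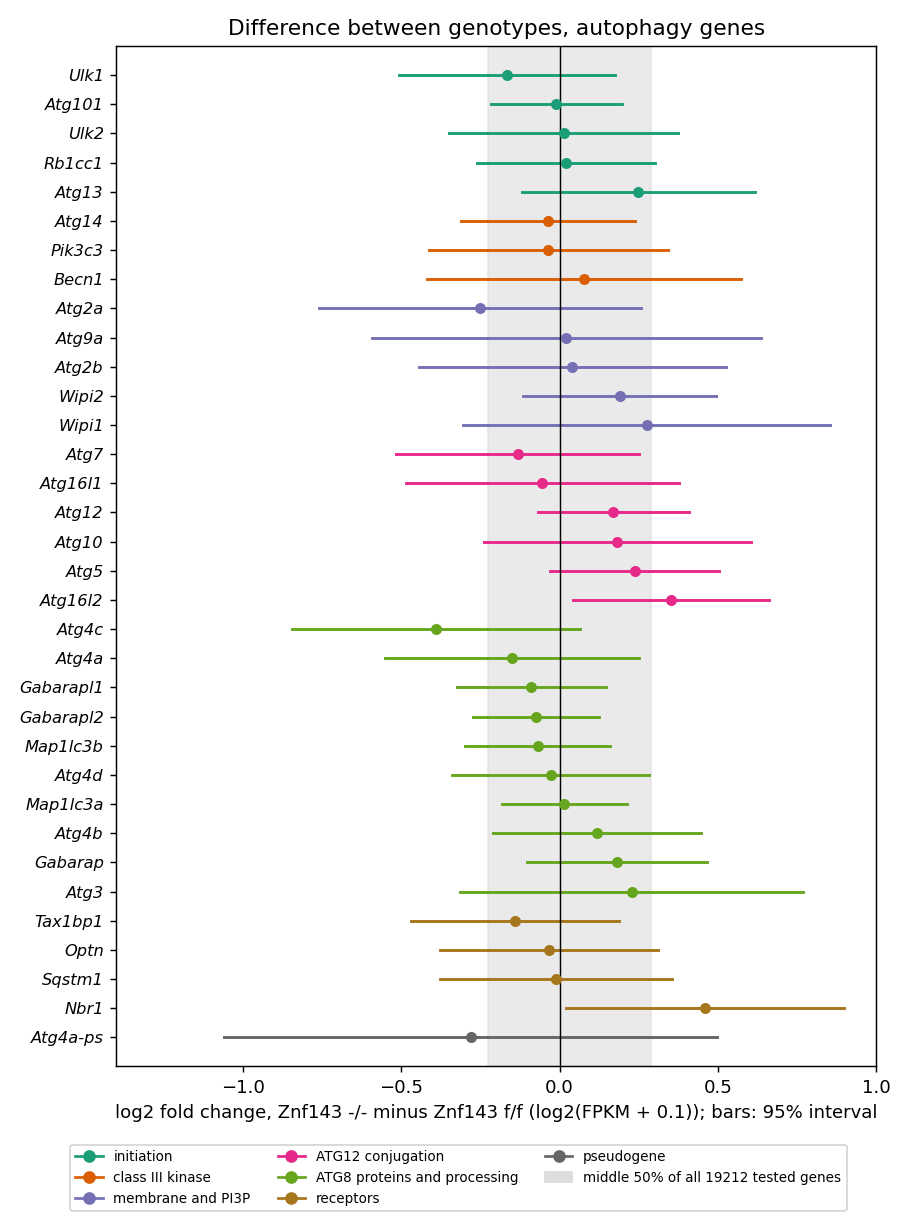
Log2 fold change of each autophagy gene (points, on log2(FPKM + 0.1)) with its 95% confidence interval (bars), ordered and coloured by role. The grey band is the middle 50% of all 19212 tested genes. Only the bars of *Nbr1* and *Atg16l2* do not reach 0, and neither gene passed the adjusted test.

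The genes of the initiating complex were expressed at very unequal levels, and none of them was called. *Ulk1* encodes the kinase that starts autophagy when nutrients are short. It had 4.93, 3.70 and 4.29 FPKM in the *Znf143 f/f* and 3.51, 4.02 and 3.88 FPKM in the *Znf143 -/-* libraries, with a log2 fold change of -0.17 (95% interval -0.51 to 0.17, adjusted p = 0.547). The genotypes overlapped, as they did for all 5 genes of the complex. *Rb1cc1* encodes FIP200, the scaffold of the complex, and had 2.74, 3.05 and 2.90 against 2.99, 2.83 and 2.99 FPKM (log2 fold change 0.020, 95% interval -0.26 to 0.30, adjusted p = 0.942). *Atg101* encodes the partner of ATG13 and was by far the highest of the complex, with 83.9, 76.9 and 77.8 against 75.4, 83.9 and 77.7 FPKM (log2 fold change -0.010, 95% interval -0.22 to 0.20, adjusted p = 0.962). Its interval was among the narrowest, and it does not reach a change of 0.25 in either direction. *Atg13* and *Ulk2*, the adaptor and the second kinase, had means of 5.84 ± 0.76 and 4.64 ± 0.76 FPKM in *Znf143 f/f* cells and 6.96 ± 0.94 and 4.65 ± 0.32 FPKM in *Znf143 -/-* cells (mean ± SD, n = 3). The log2 fold change was 0.25 for *Atg13* (95% interval -0.12 to 0.62, adjusted p = 0.398) and 0.013 for *Ulk2* (95% interval -0.35 to 0.37, adjusted p = 0.973).

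The class III kinase genes did not differ beyond the spread between libraries. *Becn1* encodes Beclin 1, the regulatory subunit. It had 9.11, 8.03 and 9.17 FPKM in the *Znf143 f/f* and 6.60, 11.05 and 10.82 FPKM in the *Znf143 -/-* libraries, so that the first *Znf143 -/-* library lay below and the other two above all controls. Its log2 fold change was 0.078 (95% interval -0.42 to 0.57, adjusted p = 0.865), and 18.4% of its exon bases overlap exons of *Cntd1* on the other strand, which the unstranded libraries cannot separate. *Pik3c3*, the catalytic subunit, had 7.29, 6.08 and 7.41 against 5.53, 7.67 and 7.19 FPKM (log2 fold change -0.035, 95% interval -0.41 to 0.34, adjusted p = 0.923). Here too the first *Znf143 -/-* library was the lowest of all. *Atg14*, whose product directs the kinase to the site of autophagosome formation, had 3.69, 3.98 and 3.46 against 3.64, 3.55 and 3.64 FPKM (log2 fold change -0.037, 95% interval -0.31 to 0.24, adjusted p = 0.884).

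The genes of membrane supply and of lipid binding had wide intervals, with a median half-width of 0.51. *Atg9a* encodes the membrane protein whose vesicles seed the autophagosome. It had 2.31, 1.34 and 2.01 FPKM in the *Znf143 f/f* and 1.41, 2.19 and 2.11 FPKM in the *Znf143 -/-* libraries (log2 fold change 0.022, 95% interval -0.59 to 0.64, adjusted p = 0.973). In each genotype 1 library was low, the second control and the first *Znf143 -/-*, and the others were alike. At least 18.6% of the exon bases of *Atg9a* overlap *Gm29253* on the same strand. *Wipi2*, whose product binds the phospholipid made by VPS34 and recruits ATG16L1, had 5.77, 4.75 and 5.76 against 5.65, 6.47 and 6.44 FPKM (log2 fold change 0.19, 95% interval -0.11 to 0.49, adjusted p = 0.437). The remaining genes of this group, the lipid transfer proteins *Atg2a* and *Atg2b* and the lipid binder *Wipi1*, had log2 fold changes of -0.25, 0.040 and 0.28 and overlapping genotypes.

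Of the ATG12 conjugation system, *Atg16l2* stood apart between genotypes without passing the adjusted test. *Atg16l2* (ENSMUSG00000047767, chromosome 7, 101263034 to 101302251, minus strand, GRCm38) encodes a relative of ATG16L1 that binds ATG5 and whose own part in autophagy is less clear. It had 2.39, 2.19 and 2.11 FPKM in the *Znf143 f/f* and 2.98, 3.005 and 2.64 FPKM in the *Znf143 -/-* libraries. All *Znf143 -/-* libraries lay above all controls. The log2 fold change was 0.35 ± 0.13 SE (95% interval 0.041 to 0.66, unadjusted p = 0.0318, limma adjusted p = 0.177), and the exact permutation test gave p = 0.1, two-sided, the smallest that 3 against 3 libraries allow. *Atg16l1*, the established scaffold of the conjugate, had 2.29, 1.56 and 2.22 against 1.97, 1.82 and 1.97 FPKM (log2 fold change -0.055, 95% interval -0.49 to 0.38, adjusted p = 0.891), so that both relatives had a like FPKM.

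*Atg5*, the acceptor of ATG12, had 24.9, 27.2 and 26.1 FPKM in the *Znf143 f/f* and 26.7, 33.4 and 32.4 FPKM in the *Znf143 -/-* libraries. The first *Znf143 -/-* library lay among the controls and the other two above them. Its log2 fold change was 0.24 ± 0.11 SE (95% interval -0.029 to 0.50, adjusted p = 0.269), and without the first *Znf143 -/-* library it was 0.34 with an adjusted p of 0.0488. *Atg7*, the activating enzyme of both conjugation systems, had 6.94, 7.40 and 7.14 against 5.16, 7.69 and 7.00 FPKM (log2 fold change -0.13, 95% interval -0.52 to 0.25, adjusted p = 0.680). *Atg12* itself and *Atg10*, the enzyme that transfers it, had log2 fold changes of 0.17 and 0.18 with overlapping genotypes. In this group 4 of 6 changes were above 0, with a median of 0.18.

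**Figure D2:**
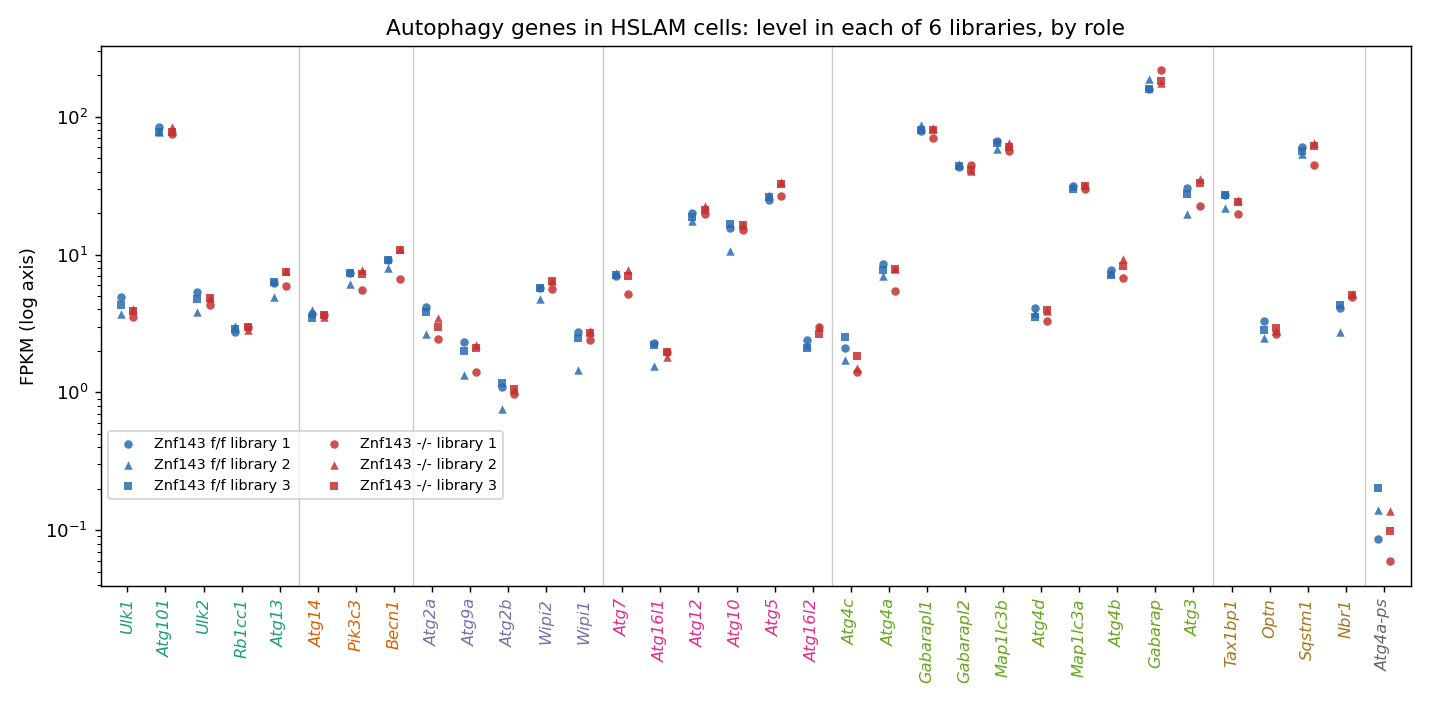
FPKM of each autophagy gene in each of the 6 libraries (log axis), grouped by role as named in the text (name colours, with grey lines between groups) and ordered within a group by log2 fold change. Blue marks *Znf143 f/f* and red *Znf143 -/-* libraries. The levels run from *Gabarap* (159 to 217 FPKM) down to *Atg4a-ps* (0.060 to 0.20 FPKM), and the genotypes overlap for all genes other than *Nbr1* and *Atg16l2*.

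The ATG8 family, the ubiquitin-like proteins that coat the autophagosome, was the most abundant group by FPKM. *Gabarap* was the highest of all autophagy genes, with 159, 187 and 160 FPKM in the *Znf143 f/f* and 217, 176 and 181 FPKM in the *Znf143 -/-* libraries (log2 fold change 0.18, 95% interval -0.10 to 0.47, adjusted p = 0.423). The second control library lay above 2 of the *Znf143 -/-* libraries. *Map1lc3b* encodes LC3B, the usual marker protein of autophagosomes, and had 66.5, 58.5 and 64.9 against 56.0, 64.3 and 60.7 FPKM (log2 fold change -0.069, 95% interval -0.30 to 0.16, adjusted p = 0.721). *Gabarapl2* had 43.4, 45.3 and 43.8 against 44.6, 40.3 and 41.0 FPKM (log2 fold change -0.074, 95% interval -0.27 to 0.12, adjusted p = 0.654), and the table also lists its near-identical copies *Gm3724*, *Gm5829* and *Gm6051*, to which the counting may have assigned some of its reads. *Gabarapl1* and *Map1lc3a* had means of 82.2 ± 4.5 and 30.8 ± 0.93 FPKM in *Znf143 f/f* cells and 77.4 ± 6.6 and 31.1 ± 1.2 FPKM in *Znf143 -/-* cells (mean ± SD, n = 3). For *Gabarapl1*, 28.3% of exon bases overlap *1700101I11Rik* on the other strand.

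Summed over its 5 genes, the ATG8 family had 389 ± 17.5 FPKM in *Znf143 f/f* and 402 ± 13.2 FPKM in *Znf143 -/-* cells (mean ± SD, n = 3, exact permutation p = 0.3, two-sided). *Gabarap* made up 43.2% ± 2.07 of this sum in *Znf143 f/f* and 47.5% ± 3.96 in *Znf143 -/-* cells (SD, n = 3, exact permutation p = 0.2). The shares in single libraries were 41.9%, 45.6% and 42.2% against 52.0%, 44.6% and 45.9%, which overlap. The ratio of the GABARAP to the LC3 subfamily was 3.14 ± 0.36 and 3.41 ± 0.40 (SD, n = 3, exact permutation p = 0.5). It depends on the gene lengths, 7517 bases for *Map1lc3b* against 1844 for *Gabarap*. In fragments of the first *Znf143 f/f* library, *Map1lc3b* had 19319 and *Gabarap* 11309. The ratio therefore does not show which subfamily held most transcripts.

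The proteases and the enzyme that process the ATG8 proteins included the lowest fold change of all members. *Atg4c* encodes 1 of 4 ATG4 proteases. It had 2.10, 1.72 and 2.51 FPKM in the *Znf143 f/f* and 1.39, 1.51 and 1.83 FPKM in the *Znf143 -/-* libraries. Only the third *Znf143 -/-* library reached above the lowest control, and the log2 fold change was -0.39 ± 0.19 SE (95% interval -0.85 to 0.064, adjusted p = 0.283). Without the third control library the log2 fold change was -0.26, and without the second it was -0.53 with an adjusted p of 0.112. *Atg4a*, *Atg4b* and *Atg4d* had log2 fold changes of -0.15, 0.12 and -0.028, and *Atg3*, the enzyme that joins ATG8 proteins to lipid, had 0.23, all with overlapping genotypes. At least 10.9% of the exon bases of *Atg4d* overlap *Kri1* on the other strand. *Atg3* varied widely among libraries, from 19.7 to 30.5 FPKM in *Znf143 f/f* and from 22.4 to 35.5 FPKM in *Znf143 -/-* cells. *Atg4a-ps*, whose transcript is 99.3% identical to that of *Atg4a* over 2115 bases, was covered by 6 to 19 fragments per library, and reads of the pair may not be told apart.

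Of the 4 cargo receptors, *Nbr1* had the highest log2 fold change of all autophagy genes. *Nbr1* (ENSMUSG00000017119, chromosome 11, 101552149 to 101581951, plus strand, GRCm38) encodes a receptor of ubiquitinated cargo related to p62. It had 4.12, 2.74 and 4.30 FPKM in the *Znf143 f/f* and 4.93, 5.16 and 5.08 FPKM in the *Znf143 -/-* libraries. All *Znf143 -/-* libraries lay above all controls, and the second control was far below the other two. The log2 fold change was 0.46 ± 0.19 SE (95% interval 0.020 to 0.90, unadjusted p = 0.0429, limma adjusted p = 0.206), and the exact permutation p was 0.1. Without the second control library the log2 fold change was 0.26 (adjusted p = 0.142).

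*Sqstm1* had 60.3, 53.3 and 56.7 FPKM in the *Znf143 f/f* and 44.5, 64.7 and 61.8 FPKM in the *Znf143 -/-* libraries (log2 fold change -0.010, 95% interval -0.38 to 0.36, adjusted p = 0.978). The mean was alike, but the *Znf143 -/-* libraries lay on both sides of the controls. Exons of *Mrnip* on the other strand overlap 17.3% of its exon bases. *Optn* and *Tax1bp1*, receptors of damaged mitochondria and of bacteria among other cargo, had log2 fold changes of -0.034 and -0.14. By FPKM, *Tax1bp1* was the second most abundant receptor, with 25.3 ± 3.16 and 22.9 ± 2.79 (mean ± SD, n = 3).

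A pattern among libraries ran through most of these genes. The second control library was the lowest of its genotype in 22 of the 34 genes (64.7%), against 55.0% of all tested genes, and the first *Znf143 -/-* library was the lowest of its genotype in 28 (82.4%), against 54.4%. Both held in 21 genes (61.8%, against 36.8% of all genes). The median deviation from the other libraries of the same genotype was -0.20 on the log2 scale for the second control and -0.18 for the first *Znf143 -/-* library. Over all genes these medians were -0.12 and -0.11. They were -0.206 and -0.208 for the tested genes of at least median length, and 0.0038 and 0.045 for shorter genes. The autophagy genes are long, with a median length of 4438 bases against 2867.5 for all tested genes. The part of length in the pattern was not tested.

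**Figure D3:**
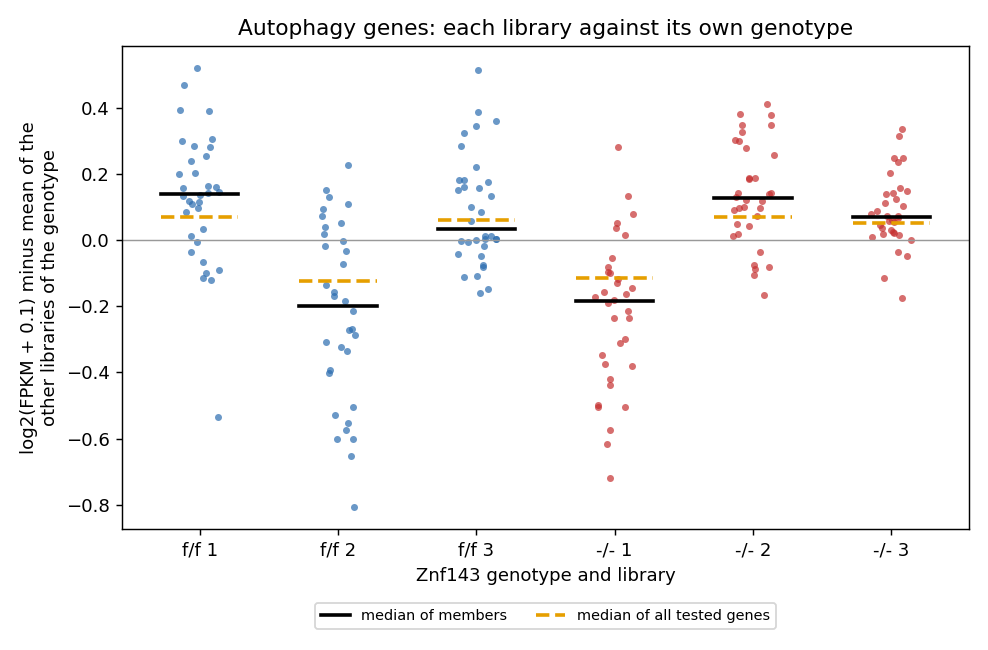
Deviation of each library from the mean of the other libraries of its genotype, on log2(FPKM + 0.1), for the 34 autophagy genes (points). Black lines give the median of the autophagy genes and dashed orange lines that of all tested genes. The medians of the second *Znf143 f/f* (-0.20) and the first *Znf143 -/-* library (-0.18) lie below 0 and below those of all genes.

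With both of these libraries left out, a choice made after the data were seen, 6 autophagy genes passed as higher in *Znf143 -/-* cells and 1 as lower. The higher ones were *Atg13*, *Atg3*, *Atg5*, *Becn1*, *Gabarap* and *Nbr1*, with log2 fold changes of 0.25, 0.25, 0.37, 0.26, 0.16 and 0.28, and the lower one was *Tax1bp1* at -0.15. In that fit of 2 against 2 libraries 8113 of 19110 genes were called, so that calls were frequent among all genes as well.

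The genes around the core pathway were read from a list of 56 genes in the table, all of which were tested. It holds regulators of nutrient signalling, transcription factors, partners of the class III kinase and other phagophore genes, fusion genes and mitophagy receptors. At an adjusted p under 0.05, 0 were higher and 4 were lower in *Znf143 -/-* cells, beside 2.83% and 2.39% of all tested genes. At an unadjusted p under 0.05, 1 was higher and 10 were lower, beside 12.6% and 9.94% of all tested genes. Genotypes did not overlap in 1 gene that was higher and 10 that were lower, beside 16.0% and 13.5% of all tested genes. The median log2 fold change was 0.030, close to the 0.034 of all genes. The genes lower at the adjusted p were *Tfeb*, *Mitf*, *Rubcn* and *Prkaa2*. Of the 6 transcription factors, 2 passed as lower and the median log2 fold change was -0.66.

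*Tfeb* (ENSMUSG00000023990, chromosome 17, 47737030 to 47792419, plus strand, GRCm38) encodes the main transcription factor of lysosome and autophagy genes. It had 4.29, 3.80 and 4.38 FPKM in the *Znf143 f/f* and 2.30, 2.42 and 2.42 FPKM in the *Znf143 -/-* libraries. All *Znf143 -/-* libraries lay well below all controls, and the log2 fold change was -0.78 ± 0.12 SE (95% interval -1.07 to -0.49, limma adjusted p = 0.0191), or 0.584 of the control level. *Mitf*, a relative of TFEB from the same family of factors, had 0.835, 0.922 and 0.957 against 0.228, 0.324 and 0.323 FPKM (log2 fold change -1.37 ± 0.21 SE, adjusted p = 0.0172). *Tfe3*, the third relative in the list, had 1.79, 1.48 and 1.81 against 1.38, 2.05 and 2.01 FPKM, and its log2 fold change was 0.077 (95% interval -0.40 to 0.55, adjusted p = 0.860).

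*Rubcn* encodes Rubicon, an inhibitor of autophagosome maturation that binds the class III kinase complex. It had 1.86, 1.71 and 1.83 FPKM in the *Znf143 f/f* and 0.366, 0.716 and 0.628 FPKM in the *Znf143 -/-* libraries (log2 fold change -1.54 ± 0.24 SE, adjusted p = 0.0192). *Prkaa2* encodes a catalytic subunit of AMPK, the energy sensor that phosphorylates ULK1. It had 0.893, 0.543 and 1.05 against 0.135, 0.272 and 0.223 FPKM (log2 fold change -1.57 ± 0.31 SE, adjusted p = 0.0380), with 51 to 105 fragments in the *Znf143 -/-* libraries. The genotypes did not overlap for either gene. *Prkaa1*, the other catalytic subunit and the more abundant of the pair in these cells, had 5.21, 4.06 and 5.30 against 3.69, 4.72 and 5.47 FPKM and a log2 fold change of -0.079 (adjusted p = 0.842).

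The 4 calls depended on which libraries entered the fit. With the second *Znf143 f/f* library left out all 4 held, and *Tfeb*, *Mitf* and *Rubcn* held without the first *Znf143 -/-* library. None passed without the first *Znf143 f/f* library (*Tfeb* 0.0954, *Mitf* 0.0707, *Rubcn* 0.0830, *Prkaa2* 0.143, as adjusted p), without the third (0.110, 0.1, 0.0920 and 0.162 in the same order) or without the third *Znf143 -/-* library (0.107, 0.0857, 0.0807 and 0.147). Without the second *Znf143 -/-* library only *Rubcn* passed (0.0414, against 0.0810 for *Tfeb*, 0.0652 for *Mitf* and 0.0905 for *Prkaa2*), and *Prkaa2* was lost without the first as well (0.0523). With the FPKM as deposited, *Tfeb* had a log2 fold change of -0.70 and an adjusted p of 0.0747. With 1 library left out, the log2 fold changes stayed between -0.84 and -0.74 for *Tfeb*, -1.43 and -1.25 for *Mitf*, -1.71 and -1.30 for *Rubcn* and -1.81 and -1.38 for *Prkaa2*. The exact permutation p of each of the 4 genes was 0.1.

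**Figure D4:**
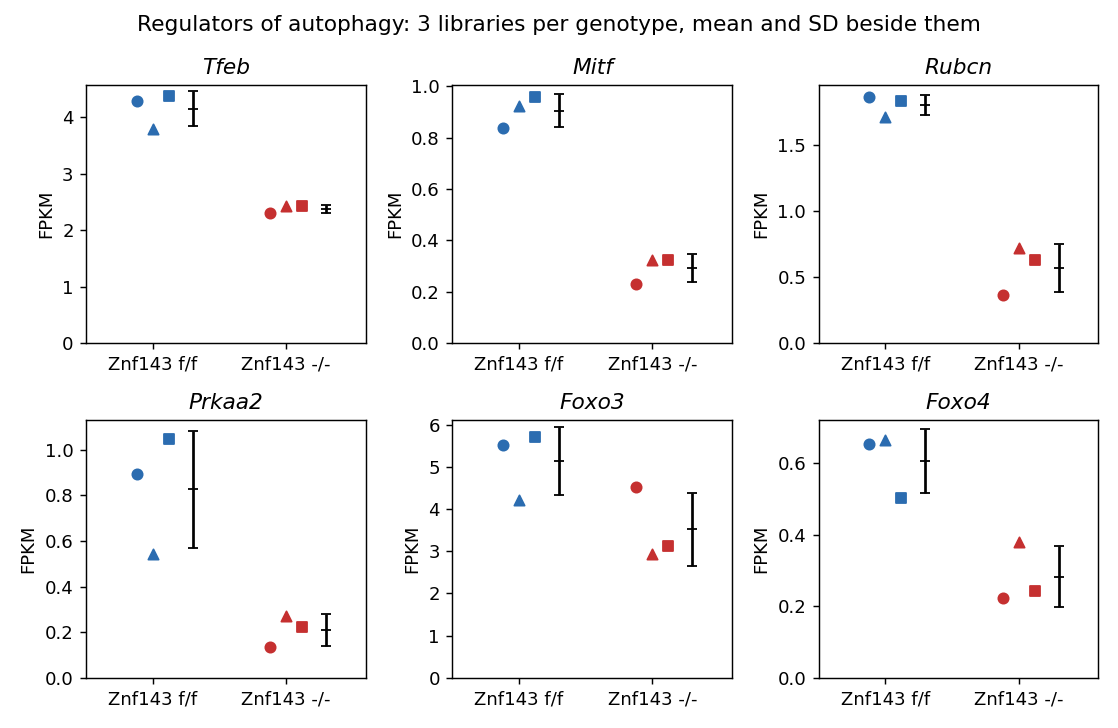
FPKM of *Tfeb*, *Mitf*, *Rubcn*, *Prkaa2*, *Foxo3* and *Foxo4* in each library (circles, triangles and squares for libraries 1, 2 and 3 of each genotype), with the mean and SD (n = 3) beside them. The first 4 genes passed the test as lower in *Znf143 -/-* cells. *Foxo3* (adjusted p = 0.180) and *Foxo4* (adjusted p = 0.0948) did not. *Foxo1*, which did not pass either, is not drawn.

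The FOXO factors, which activate autophagy genes in fasting tissue and are known to protect hematopoietic stem cells, were not called. *Foxo3* had 5.52, 4.23 and 5.72 FPKM in the *Znf143 f/f* and 4.53, 2.94 and 3.12 FPKM in the *Znf143 -/-* libraries. The first *Znf143 -/-* library lay among the controls and the other two below them. Its log2 fold change was -0.55 (95% interval -1.03 to -0.061, adjusted p = 0.180), and without the first *Znf143 -/-* library it was -0.74 with an adjusted p of 0.0497. *Foxo4* was scarcer, at 0.503 to 0.663 against 0.224 to 0.380 FPKM (log2 fold change -0.90, adjusted p = 0.0948). *Foxo1*, the remaining FOXO gene of the list, went the other way, with 2.54, 1.38 and 2.10 against 2.06, 2.46 and 2.44 FPKM. Its log2 fold change was 0.24 (95% interval -0.32 to 0.79, adjusted p = 0.600). Among receptors and fusion genes, *Calcoco1*, a receptor of endoplasmic reticulum and Golgi, had a log2 fold change of -0.70 (adjusted p = 0.0849) and *Vps33a*, a subunit of the tethering complexes of lysosomes, one of 0.43 (adjusted p = 0.200). *Vamp8* was the only fusion gene whose genotypes did not overlap, with all *Znf143 -/-* libraries below all controls (log2 fold change -0.24, adjusted p = 0.204). In other groups of the list, *Wdfy3*, *Stk11* and *Ambra1* were lower without overlap (log2 fold changes -0.44, -0.30 and -0.17). Their adjusted p were 0.108, 0.171 and 0.477. *Rheb* was the gene that was higher without overlap (log2 fold change 0.13, adjusted p = 0.402).

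The promoters were searched for short sequences of 3 factors, since ZNF143 and TFEB act at promoters and both fell at the RNA level. RefSeq promoters on GRCm38, each from 250 bases before to 50 bases after an annotated start, were at hand for 27 of the 34 autophagy genes (31 promoters) and were searched on both strands. The piece ACTACANNT of the ZNF143 site occurred in 4.16% of 32851 promoters and in those of 2 autophagy genes, *Nbr1* and *Atg4a*. Among the 4 genes that were lower, *Tfeb*, *Mitf* and *Rubcn* held it at 1 of their annotated starts and *Prkaa2* did not. In the wider list as a whole 8 genes held it, and the other 5 of them, none of which passed the test, had log2 fold changes of -0.70 (*Calcoco1*), -0.22 (*Vps41*), -0.053 (*Ccpg1*), 0.081 (*Tsc2*) and 0.18 (*Zfyve1*). The 4.16% is a share of promoters, whereas these are counts of genes, which can have several starts. The counts therefore do not compare directly with that share, and enrichment was not tested. The windows of these genes are shown in the direction of the gene because they allow the match to be compared between the 2 autophagy genes and the 3 genes that were lower. Capitals mark the matched piece, which in *Mitf* and *Rubcn* lies on the opposite strand.
*Nbr1* (chr11:101552543-101552571, plus strand): ttccaggaagACTACAATTcccgtccagc
*Atg4a* (chrX:140956876-140956904, plus strand): gcaaagtggaACTACAAGTcccagaatcc
*Tfeb* (chr17:47736952-47736980, plus strand): tgcgacggggACTACATTTcccagcgggc
*Mitf* (chr6:97806908-97806936, plus strand): accttctgggAGTTGTAGTttttgcggaa
*Rubcn* (chr16:32868352-32868380, minus strand): gctttttgggAATTGTAGTtcttggagcc
The pieces began at -101, -21, -75, -140 and -4 bases from the annotated start in this order. For *Nbr1* and *Rubcn* that start lies inside the annotated gene, which begins at 101552149 and, on the minus strand, at 32877766. A match of these letters is a description and does not show binding.

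A second piece of the ZNF143 site, CCCANNATG, occurred in 5.01% of all promoters and in those of *Atg14*, *Atg4a* and *Atg7*, so that *Atg4a* held both pieces. GTCACGTG, the core of the element that TFEB binds, occurred in 2.25% of all promoters and in 3 autophagy genes, *Atg3*, *Atg7* and *Atg14*, which are shown as the members with a TFEB element. In *Atg14* the element lies on the opposite strand.
*Atg3* (chr16:45158723-45158750, plus strand): gcctccttttGTCACGTGtcctgggaga
*Atg7* (chr6:114670952-114670979, plus strand): catattggtgGTCACGTGtgcagtaagt
*Atg14* (chr14:47568418-47568445, minus strand): aacaaaatccCACGTGACtggccctgag
*Atg3* held it again at -73 bases. The starts searched for *Atg7* and *Atg14* lie inside the annotated genes, which begin at 114643097 and, on the minus strand, at 47570649. The log2 fold changes of *Atg3*, *Atg7* and *Atg14* were 0.23, -0.13 and -0.037, beside -0.78 for *Tfeb*, and none of the 3 passed the test. GTAAACA, a core of the FOXO element, occurred in 3.65% of all promoters and in 0 of the 27 autophagy genes with a promoter.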

How the data were processed

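The 6 RNA-seq libraries of HSLAM cells (3 per genotype) were analysed. ChIP-seq and HiC samples were not analysed here. The authors prepared libraries from polyA RNA with kits that do not mark strand, used TrimGalore for trimming, STAR for alignment to GRCm38 and FeatureCounts for counting, and deposited FPKM per library with gene lengths. Their table also holds a mean normalized count and the fold change, error, statistic and p-values of the authors' own comparison, which were not used.

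Fragments were recovered from FPKM times length (99.986% of 138696 values whole within 0.05), and FPKM were rescaled to each library's own total. Depth was 38643255 to 57895793 fragments, and intervals cover the spread between libraries. limma 3.58.1 (R 4.3.3, variance trend, no block) was run on log2(FPKM + 0.1) for genes whose mean FPKM reached 0.1, with p-values adjusted by Benjamini-Hochberg over all 19212 genes. Fold changes on this scale understate those of low genes. On simulated data of this comparison (19163 genes tested), 98 of 100 genes changed 4-fold and 82 of 100 changed 2-fold were recovered, with 12 false calls among 192. The simulated fragments varied independently between libraries with the same dispersion for every gene, and the changed genes were drawn from well-covered ones. No pattern shared among libraries was simulated, so that these rates need not hold for the real libraries.

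The members and lists were chosen with earlier results of these data known. Values in every library are given for members with an adjusted p under 0.05 or no overlap, for genes fixed by role (*Ulk1*, *Rb1cc1*, *Becn1*, *Pik3c3*, *Atg9a*, *Wipi2*, *Atg5*, *Atg7*, *Atg16l1*, *Map1lc3b*, *Gabarapl2*, *Sqstm1*, *Nbr1*), for members among the study's direct targets (*Atg4c*, *Atg14*, *Atg101*, *Nbr1*, *Rb1cc1*), a list that was chosen in part on these samples, and for wider genes that passed, *Tfeb* and *Foxo3*. *Gabarap*, *Tfe3*, *Prkaa1*, *Foxo1*, *Foxo4*, *Calcoco1*, *Vps33a*, *Vamp8*, *Wdfy3*, *Stk11*, *Ambra1* and *Rheb* were added after their values were seen. Of the wider list, *Wdr45l* and *Fam134b* were not found in the table under these symbols. Coordinates and exons are from GENCODE, promoters from RefSeq, both on GRCm38, and transcripts were compared with BLAST 2.17.0. Python 3.11.15 and matplotlib 3.10.9 drew the figures. Alternatives were the FPKM as deposited, median-of-ratios factors, a pseudocount of 0.01 or 1, a filter at a mean FPKM of 1 or none, limma's voom, no variance trend, a replicate block and each library left out, and 2 more were added after the data were seen.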

Additional observations from a re-analysis of the deposited data

How the results depend on the processing

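No autophagy gene was called under the alternatives that kept all 6 libraries. With 1 library left out, the count of higher genes ranged from 0 to 1 (*Atg5* without the first *Znf143 -/-* library). With the second *Znf143 f/f* and first *Znf143 -/-* libraries left out together, an alternative added after seeing the data, 6 autophagy genes were higher and 1 lower, 9 wider genes higher and 10 lower, and 4498 of all genes higher and 3615 lower, in a fit with 2 libraries per genotype. The mice were littermates, but same-numbered libraries did not stand out as pairs in the data (correlations -0.0967, -0.0902 and 0.0352). Correlations of differently numbered libraries ran from -0.0436 to 0.107. The pattern among libraries described above was not removed from these values, so that they do not settle which libraries form a pair. With the replicate number as a block, 90 of all genes were higher and 85 lower, and 0 wider genes were lower. With the block and median-of-ratios factors, these counts were 81, 105 and 0. With the FPKM as deposited, 304 of all genes were lower and 529 higher (63.5% of calls, against 54.2% for 544 higher and 459 lower), and the median of all genes moved from 0.034 to 0.11. Leaving out 1 library gave 81 to 1194 of all genes higher (lowest without *Znf143 -/-* library 3, highest without *Znf143 -/-* library 1) and 102 to 938 lower (lowest without *Znf143 f/f* library 3, highest without *Znf143 f/f* library 2), with 0 to 5 wider genes lower. Without *Znf143 -/-* library 1, 2 and 3 in turn, 62.2%, 44.4% and 42.9% of calls were higher. A mean FPKM of at least 1 left 2 wider genes lower, since *Mitf* and *Prkaa2* were then not tested.

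Signs of small, uncalled log2 fold changes turned. As deposited, *Gabarapl2* was 0.010, *Map1lc3b* 0.015, *Atg16l1* 0.026, *Atg14* 0.045, *Optn* 0.048, *Pik3c3* 0.048, *Atg4d* 0.055, *Sqstm1* 0.074 and *Atg101* 0.074. With median-of-ratios factors, with and without the block, *Ulk2* was -0.016, *Map1lc3a* -0.014, *Rb1cc1* -0.0080 and *Atg9a* -0.0061. Without both of the libraries named first, *Atg7* was 0.058, *Gabarapl1* 0.026, *Atg14* 0.0081, *Atg4d* 0.050, *Pik3c3* 0.015, *Sqstm1* 0.11, *Ulk2* -0.061, *Atg9a* -0.0043 and *Atg2b* -0.11. Leaving out 1 library gave ranges of -0.24 to 0.017 for *Atg4a*, -0.25 to 0.034 for *Atg7*, -0.22 to 0.039 for *Atg16l1*, -0.086 to 0.014 for *Atg14*, -0.13 to 0.060 for *Optn*, -0.081 to 0.051 for *Atg4d*, -0.13 to 0.10 for *Pik3c3*, -0.054 to 0.029 for *Atg101*, -0.11 to 0.16 for *Sqstm1*, -0.12 to 0.12 for *Ulk2*, -0.0098 to 0.047 for *Map1lc3a*, -0.018 to 0.057 for *Rb1cc1*, -0.20 to 0.21 for *Atg9a*, -0.14 to 0.15 for *Atg2b*, -0.049 to 0.32 for *Becn1* and -0.018 to 0.30 for *Atg10*. *Zfp143* was lower under all 17 alternatives (-3.94 to -1.88). With 3 libraries per genotype, differences near 0 have no firm sign. The causes were not tested.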
